A study of Rattus norvegicus with 9 samples.

Results

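Heat shock and stress genes were followed across a protocol that changes the medium of neurons, and the genes were Hspa1a, Hspa1b, Hspa8, Hspa4, Hspb1, Hspd1, Dnajb1, Hsf1 and Hmox1. They were taken by name, as every probe whose gene name in the array files is one of these 9, which gave 18 of the 41012 probes on the array. Of the 18, 17 probes for 8 genes were bright enough to test, of 30321 probes tested in all. Messenger RNA was measured on 9 single-colour Agilent rat arrays, 3 in each of 3 groups. All neurons were dissociated from the cortices of prenatal rat pups, kept in Neurobasal supplemented with either B27 or NS21, used at 11 to 15 days in culture and held for 48 h in tetrodotoxin (TTX), which blocks voltage-gated sodium channels and silences firing. In the W15 and W45 groups the toxin was then removed with 3 washes in regular medium and the cells were collected 15 or 45 min later, whereas the TTX group was collected after the toxin treatment. The labels mention no mock wash of cells kept in TTX, so the wash itself and the return of firing cannot be told apart in these groups.

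Heat shock proteins are chaperones that hold, refold or pass on other proteins. When proteins misfold, the transcription factor Hsf1 trimerises, binds repeated GAA units in the promoters of its target genes and switches them on, and the inducible HSP70 genes Hspa1a and Hspa1b and the J-domain gene Dnajb1 are among its best-known targets. Hmox1, which breaks down heme, is mainly a target of the oxidative stress factor NRF2. Neurons are known for a weak induction of HSP70 by heat compared with glia, and the constitutive HSP70, Hspa8, is abundant in brain.

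The probes are 60 bases long, and a few are shown because the results turn on what they read. All are printed 5′ to 3′ in lower case and have at least 1 forward reading frame without a stop codon. The first reads Hspa1a, and the next reads Hspa8 with the one array that falls far out of its group. Those of Hspb1 and Hmox1 are printed in 10 spots on each array, which gives an error within the array.
Hspa1a probe 2: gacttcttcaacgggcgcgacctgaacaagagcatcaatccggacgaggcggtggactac
Hspa8 probe 4: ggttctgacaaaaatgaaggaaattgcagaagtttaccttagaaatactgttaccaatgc
Hspb1 probe: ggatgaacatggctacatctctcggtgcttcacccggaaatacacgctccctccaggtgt
Hmox1 probe: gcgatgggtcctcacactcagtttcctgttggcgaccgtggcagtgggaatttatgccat

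A pair of Hspd1 probes is shown because their letters overlap and their values do not follow each other. Capitals mark their longest shared run, which is 30 bases long.
Hspd1 probe 2: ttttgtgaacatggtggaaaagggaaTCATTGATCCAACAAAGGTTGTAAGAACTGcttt
Hspd1 probe 3: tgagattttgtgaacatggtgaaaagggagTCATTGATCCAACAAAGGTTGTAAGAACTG

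Per the array files, which use the rn3 build, Hspa1a (NM_031971) is read on chromosome 20 by probe 1 at chr20:3958091-3958150 and by probe 2 at chr20:3957065-3957124, and the single Hspb1 probe (NM_031970) spans chr12:21898758-21898928. Hmox1 (NM_012580) is read at chr19:13974162-13974221, and Hspa8 probe 4 (NM_024351) spans chr8:43794042-43794217. The files place Hspd1 probe 2 (NM_022229) at chr9:53886190-53886434, and give Hspd1 probe 3 an interval of 39 bases and Hspd1 probe 4 one of 10 bases, shorter than the probes themselves. The files do not say which exon or UTR a probe lies in. Probes of a gene are numbered from the brightest down. Hspa1a and Hspa1b are near-identical copies, so a probe in their shared coding sequence can read both.

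The promoter windows of 3 chaperone genes are shown because the Hsf1 element can be read in them. They hold the 250 bases before the start of the gene (RefSeq, GRCr8), and capitals mark pairs of inverted units, GAANNTTC or TTCNNGAA, searched on both strands at once since each is its own reverse complement. Neighbouring pairs may share a unit.
Hspa8, chr8:50080264-50080513, plus strand: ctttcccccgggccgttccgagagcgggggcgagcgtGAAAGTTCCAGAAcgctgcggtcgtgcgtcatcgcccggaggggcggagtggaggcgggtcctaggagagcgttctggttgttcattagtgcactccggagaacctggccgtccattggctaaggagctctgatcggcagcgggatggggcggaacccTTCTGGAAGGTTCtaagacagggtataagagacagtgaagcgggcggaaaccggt
Hspd1, chr9:64084038-64084287, minus strand: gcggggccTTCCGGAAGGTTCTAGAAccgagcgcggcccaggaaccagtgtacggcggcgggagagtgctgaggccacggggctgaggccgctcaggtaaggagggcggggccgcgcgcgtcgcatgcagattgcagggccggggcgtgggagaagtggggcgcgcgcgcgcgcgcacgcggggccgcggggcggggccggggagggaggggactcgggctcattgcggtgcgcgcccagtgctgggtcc
Dnajb1, chr19:41431142-41431391, minus strand: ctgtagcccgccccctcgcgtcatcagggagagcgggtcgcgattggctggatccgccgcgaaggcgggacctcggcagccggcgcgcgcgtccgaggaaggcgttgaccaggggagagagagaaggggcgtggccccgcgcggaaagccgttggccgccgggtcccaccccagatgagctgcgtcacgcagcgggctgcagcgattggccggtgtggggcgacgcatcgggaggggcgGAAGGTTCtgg

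The Hspa8 window held 4 such pairs, which form 2 triples of alternating units, and the Hspd1 window held 3 pairs in 1 run. Over the window from 250 bases before to 50 after the start, Dnajb1 held 2 pairs, one of them 11 bases before the start, and Hspb1 held 2. The windows of Hspa1a and Hspa4 held 0 pairs, which says only that these letters are not in those windows. Pairs were present in 15.9% of all 33469 rat promoter windows and triples in 0.798%. A match is a string of letters and was not tested as a binding site.

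The check that activity returned is short. Fos, an AP-1 factor that marks recently active neurons, was 29.1-fold higher at 15 min and 97.4-fold higher at 45 min than in TTX (limma adjusted p = 0.0017 and 2.12e-05), and Egr1, a zinc-finger immediate early gene, was 4.30-fold and 18.2-fold higher (adjusted p = 0.00762 and 8.79e-06). Junb, which pairs with Fos, was 34.4-fold higher at 45 min and Arc, an activity gene of dendrites, 39.9-fold (adjusted p = 5.05e-05 and 1.002e-05). At 15 min Junb was 9.38-fold higher (limma adjusted p = 0.00762). Arc was then 3.21-fold higher and was not called (limma adjusted p = 0.200). Npas4, a neuronal activity factor, was called higher at both times and was not well above background on any TTX array. With slide as a fixed block, where TTX replicate 1 is the only TTX array to share a slide with the other groups, no probe was called at 15 min, and Fos, Egr1 and Npas4 then had an adjusted p = 0.152 each and Junb 0.468. All 5 activity genes stayed called at 45 min against TTX (adjusted p = 0.00383 to 0.0215). On each array 73.2 to 78.5% of the spots were well above background, and the 75th percentile of the signal ran from 1563 to 2526. All levels below are log2 signal minus that percentile, so they compare arrays for one probe and not one probe with another.

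Markers of neurons were well above background on every array for 8 of 8 genes, those of astrocytes for 6 of 7, those of the oligodendrocyte lineage for 7 of 7 and those of fibroblasts and pericytes for 6 of 6, against 2 of 7 for microglia, where Aif1 and Cx3cr1 were above it on none, and 3 of 6 for endothelial cells. Over the whole array 28119 of 41012 probes were well above background on every array, and each marker was read by its brightest probe. The cultures thus gave signal for glial as well as neuronal markers, and the counts do not say how many cells of a type were present. The summed linear marker signal, in units of the array's 75th percentile, was 73.7 to 87.2 in TTX, 76.0 to 84.2 at W15 and 67.4 to 89.9 at W45 for astrocytes. For neurons it was 97.7 to 123 in TTX, 107 to 128 at W15 and 94.8 to 122 at W45, and both sets of ranges overlap. Most of each sum came from its brightest probe, Slc1a3 for astrocytes and Tubb3 for neurons (mean levels 5.98 and 6.34 in TTX). The next brightest were Gja1 at 3.45 and Snap25 at 4.16. The ranges thus say little about the dimmer markers. In such bulk samples, fewer cells of a type and less RNA per cell cannot be told apart. The labels do not say whether replicates were separate cultures, so p-values measure only the spread between these samples. Of the 9 arrays, leaving out W45 replicate 1 moved the count of calls at 45 min against TTX most, to 80 probes higher and 123 lower, against 53 and 7 with it. W45 replicate 1, W15 replicate 3 and TTX replicate 1 were on slide 1, TTX replicates 2 and 3 on slide 2, and W45 replicates 2 and 3 with W15 replicates 1 and 2 on slide 3.

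None of the 17 heat shock and stress probes changed in any of the 3 comparisons at an adjusted p under 0.05 (limma, Benjamini-Hochberg over 30321 probes). At 15 min against TTX 0 of 17 were called, beside 0.0198% of all probes (6 higher, 0 lower). At 45 min against TTX it was 0 of 17, beside 0.198%, and at 45 min against 15 min 0 of 17, beside 0.129%. With so few calls over the whole array, a count of 0 among 17 says little, and the sizes are given with their intervals. By an unadjusted limma p under 0.05 the counts were 0, 1 and 0 of 17, beside 3.36%, 6.37% and 6.61% of all probes. The probes whose arrays lay apart between the groups numbered 1, 1 and 1, beside 13.9%, 11.6% and 8.07%.

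The fold changes of the 17 probes lay on both sides of 0. At 15 min 10 were positive and 7 negative, with a median of 0.012 on the log2 scale and a range of -0.44 to 0.30, against a median of 0.043 over all probes tested. At 45 min 9 were positive and 8 negative, with a median of 0.00035 and a range of -0.40 to 0.32, against 0.044 over all probes. Between 45 and 15 min the median was -0.020 and the range -0.28 to 0.44, against 0.0061. The largest of these sizes is under the smallest that was called for any probe, which was 1.28 at 15 min, 0.95 at 45 min and 0.92 between them.

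**Figure D1:**
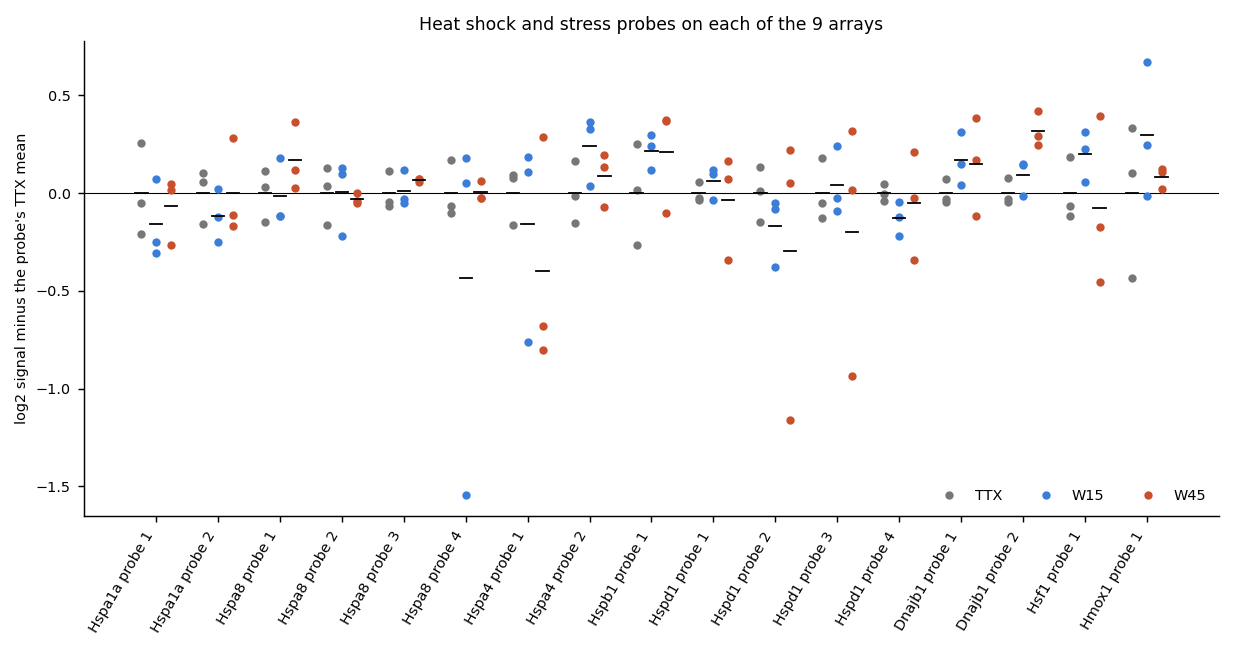
Log2 signal of each of the 17 probes on each array, minus the mean of the probe's 3 TTX arrays, with TTX in grey, W15 in blue and W45 in orange; the short black line is the group mean. Points of the 3 groups lie among each other for all probes except Dnajb1 probe 2 at W45 and Hspd1 probe 4 at W15, and 6 points lie more than 0.6 below 0.

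The intervals, here and below from the fit without slide, say how large a change could have gone unseen in that fit. The 95% interval of the fold against TTX stayed under 2-fold for all 17 probes at both times and under 1.5-fold for 13 of 17 at each. Its lower end stayed above 0.5-fold for 16 of 17 at 15 min and 15 of 17 at 45 min, and the exceptions were Hspa8 probe 4 at 15 min and Hspa4 probe 1 and Hspd1 probe 2 at 45 min. Between 45 and 15 min the upper end was under 2-fold for 16 of 17, and Hspa8 probe 4 reached 2.47-fold. With slide as a fixed block the SE against TTX was larger for every probe, and the bounds against TTX do not hold there. Hmox1 was then at 0.72 ± 0.31 at 15 min and Hspa8 probe 4 at 0.06 ± 0.64 at 45 min (log2, SE).

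**Figure D2:**
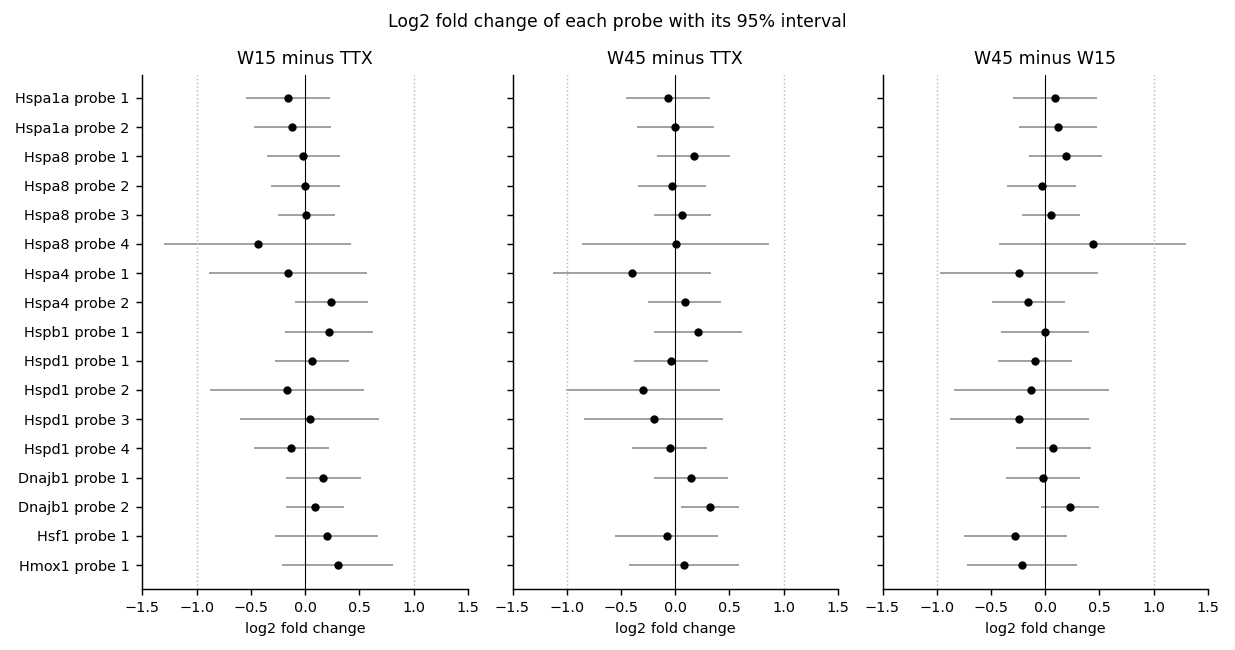
Log2 fold change of each probe (point) with its 95% interval from limma (bar), for W15 minus TTX, W45 minus TTX and W45 minus W15; dotted lines mark -1 and 1. Of the 51 intervals, 1 leaves out 0, that of Dnajb1 probe 2 for W45 minus TTX.

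Hspa1a, the inducible HSP70 and the usual readout of a heat shock response, was not called in any comparison. Its brightest probe read -0.22, -0.06 and 0.24 in TTX, -0.32, -0.26 and 0.06 at W15 and -0.28, 0.03 and 0.0030 at W45 (log2 level, replicates 1 to 3). The 3 groups overlap, and the first replicate is the lowest in each. Against TTX the log2 fold change was -0.16 ± 0.17 at 15 min and -0.07 ± 0.17 at 45 min (SE, n = 3 arrays per group), with adjusted p = 0.988 and 0.97 by limma. A rise of this probe above 1.17-fold at 15 min or 1.25-fold at 45 min lies outside the 95% intervals of this fit. With slide as a fixed block the fold changes of the probe were 0.07 ± 0.28 and 0.16 ± 0.28 (SE), and those bounds do not hold.

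The second Hspa1a probe read -2.44, -2.23 and -2.18 in TTX, -2.53, -2.40 and -2.26 at W15 and -2.45, -2.39 and -2.00 at W45. Again the groups overlap. Its fold change was -0.12 ± 0.16 at 15 min and 0.00035 ± 0.16 at 45 min, with upper ends of the intervals at 1.18-fold and 1.28-fold. These ends too do not hold with slide as a fixed block, where the SE was 0.27. Both probes varied together over the arrays (r = 0.72 over 9 arrays, a description).

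Within same-numbered pairs, the log2 difference of Hspa1a at 15 min minus TTX was -0.10, -0.20 and -0.18 for probe 1 and -0.09, -0.18 and -0.08 for probe 2, below 0 each time. With the replicate block these differences had an SE of 0.12 for both probes and adjusted p = 0.874 and 0.879 by limma. With slide as a fixed block the differences were 0.07 ± 0.28 and 0.02 ± 0.27 (SE), above 0 and not called. At 45 min the pairs went both ways for both probes. Of the 17 probes, 8 had 3 pairs of one direction at 15 min and 3 at 45 min, beside 38.1% and 29.4% of the 30269 tested probes with a value on all 9 arrays.

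The probe of the twin gene Hspa1b was not well above background on any of the 9 arrays, and was not tested. It read -9.60, -9.47 and -9.42 in TTX, -9.38, -8.93 and -8.18 at W15 and -9.04, -7.63 and -7.71 at W45. The arrays after washout lay above the TTX arrays, all at signals that give only a bound, so no fold is given.

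Dnajb1, the J-domain partner that loads clients onto HSP70, held the probe nearest to a change in the fit without slide. Its probe 2 read 1.66, 1.78 and 1.67 in TTX, 1.85, 1.84 and 1.69 at W15 and 1.99, 1.94 and 2.12 at W45. All 3 arrays at 45 min lay above all arrays of both other groups, and W15 overlapped TTX. The difference between 45 min and TTX was 0.32 ± 0.12 on the log2 scale, or 1.25-fold (95% interval 1.04 to 1.50). Limma gave it an adjusted p = 0.733, from an unadjusted p = 0.0248, and it missed the threshold.

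The other Dnajb1 probe did not repeat that separation. It read 2.35, 2.45 and 2.33 in TTX, 2.53, 2.69 and 2.42 at W15 and 2.55, 2.76 and 2.26 at W45, and W45 replicate 3, the highest array of probe 2, was the lowest array here. Its fold change was 0.17 ± 0.15 at 15 min and 0.15 ± 0.15 at 45 min (limma adjusted p = 0.988 and 0.921). Over the 9 arrays the 2 probes correlated at r = 0.19.

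Hspb1, the small heat shock protein HSP27, binds unfolding proteins without ATP and is a marker of stressed glia and injured neurons. It read -4.58, -4.30 and -4.06 in TTX, -4.07, -4.02 and -4.20 at W15 and -4.42, -3.94 and -3.94 at W45. One array, TTX replicate 1, lay below all others, and the groups overlap. The fold changes against TTX were 0.22 ± 0.18 at 15 min and 0.21 ± 0.18 at 45 min (limma adjusted p = 0.988 and 0.894), with intervals reaching 1.54-fold at both.

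Hmox1, the heme oxygenase induced by oxidative stress, read 0.30, 0.84 and 1.07 in TTX, 0.72, 1.41 and 0.99 at W15 and 0.85, 0.86 and 0.76 at W45. The TTX arrays spanned a wider range than the W45 arrays and enclosed them. Its fold change was 0.30 ± 0.23 at 15 min and 0.08 ± 0.23 at 45 min (limma adjusted p = 0.988 and 0.972). The upper ends of the intervals were 1.75-fold and 1.51-fold. With slide as a fixed block the fold changes were 0.72 ± 0.31 and 0.50 ± 0.31 (limma adjusted p = 0.999 and 0.9999), and these upper ends do not hold.

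For Hspa1a probe 1, Hspb1 and Hmox1, whose probes are printed in 10 spots per array, the median SD between spots of an array was 0.068, 0.094 and 0.056 on the log2 scale. The SD between arrays of a group was 0.21, 0.22 and 0.30. The spread that limits these comparisons is thus between arrays, not between spots.

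Hsf1, the transcription factor at the head of the heat shock response, is controlled mainly on its protein, so its messenger RNA is not a readout of its activity. Its probe read 1.03, 1.08 and 1.34 in TTX, 1.21, 1.38 and 1.46 at W15 and 0.70, 0.98 and 1.55 at W45. The W45 arrays held both the lowest and the highest of the 9 values. Fold changes against TTX were 0.20 ± 0.21 at 15 min and -0.08 ± 0.21 at 45 min (limma adjusted p = 0.988 and 0.972).

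Hspa8, the constitutive HSP70 that also strips clathrin from vesicles at synapses, was read by 4 probes. Probe 1 read 5.64, 5.90 and 5.82 in TTX, 5.67, 5.96 and 5.67 at W15 and 5.81, 6.15 and 5.90 at W45. Probe 3 read 5.54, 5.70 and 5.52 in TTX, 5.55, 5.71 and 5.54 at W15 and 5.66, 5.66 and 5.64 at W45. The groups overlap for both probes, and the 9 values of probe 3 lay within a narrow band.

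Probe 3 was among the steadiest probes of the array, with an SD between arrays of a group of 0.078, a size that 2.21% of all probes tested stayed under. Its fold change was 0.012 ± 0.12 at 15 min and 0.07 ± 0.12 at 45 min (limma adjusted p = 0.9998 and 0.955), and the 45 min interval ran from 0.871-fold to 1.26-fold. Probe 2 gave 0.0030 ± 0.14 and -0.03 ± 0.14, and probe 1 gave -0.02 ± 0.15 and 0.17 ± 0.15.

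The dimmest Hspa8 probe, printed above, read 1.09, 0.86 and 0.82 in TTX, -0.62, 1.10 and 0.97 at W15 and 0.90, 0.90 and 0.98 at W45. One array, W15 replicate 1, fell far under the other 8, which lay within 0.82 to 1.10. Its fold change at 15 min of -0.44 ± 0.38, the most negative of the set (limma adjusted p = 0.988), rests on that array: without W15 replicate 1 it was 0.12. On that array probes 1 and 3 lay within the range of the other arrays, and probe 2, at 5.59, lay just under its next lowest value of 5.64.

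Hspa4, an HSP110-family exchange factor that releases ADP from HSP70, gave its probes different courses. Probe 1 read 4.35, 4.59 and 4.60 in TTX, 4.70, 4.62 and 3.75 at W15 and 4.80, 3.71 and 3.83 at W45. Its values formed 2 levels, with W15 replicate 3 and W45 replicates 2 and 3 low and the other 6 arrays between 4.35 and 4.80. The fold change at 45 min was -0.40 ± 0.32 (limma adjusted p = 0.887), the most negative of the set at that time.

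That value changed sign with the arrays used. It was 0.29 without W45 replicates 2 and 3 and 0.45 on slide 1 alone, which holds 1 array of each group. Between 45 and 15 min the fold change of probe 1 was -0.88 on slide 3 (2 arrays against 2) and 1.05 on slide 1, beside -0.24 over all arrays. Probe 2 read -0.50, -0.68 and -0.82 in TTX, -0.34, -0.63 and -0.31 at W15 and -0.54, -0.47 and -0.74 at W45, without the low arrays of probe 1 (r = -0.23 over 9 arrays).

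Hspd1, the mitochondrial chaperonin HSP60, was read by 4 probes. The brightest read 5.23, 5.14 and 5.15 in TTX, 5.27, 5.14 and 5.30 at W15 and 5.34, 5.25 and 4.83 at W45, with W45 replicate 3 lowest. Its fold changes were 0.06 ± 0.15 at 15 min and -0.03 ± 0.15 at 45 min (limma adjusted p = 0.994 and 0.987). The groups overlap.

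The overlapping pair of Hspd1 probes printed above went apart on single arrays. Probe 2 read 3.92, 4.08 and 4.20 in TTX, 4.02, 3.69 and 3.98 at W15 and 4.12, 4.28 and 2.91 at W45. Probe 3 read 2.81, 2.89 and 3.12 in TTX, 2.85, 3.18 and 2.91 at W15 and 2.96, 2.004 and 3.26 at W45. Probe 2 was low on W45 replicate 3, where probe 3 was highest, and probe 3 was low on W45 replicate 2, where probe 2 was highest.

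Over the 9 arrays probes 2 and 3 correlated at r = -0.57, and probes 1 and 2 at 0.85. Probe 4 read 2.37, 2.41 and 2.46 in TTX, 2.29, 2.37 and 2.19 at W15 and 2.07, 2.39 and 2.62 at W45. Its W15 arrays all lay below the TTX arrays, by -0.13 ± 0.15 on average (limma adjusted p = 0.988), and its correlation with probe 1 was -0.88. Values more than 0.6 under the TTX mean thus occurred for Hspa8, Hspa4 and Hspd1, on 1 probe of the gene at a time on any array. Whether they come from the spot, the sample or the transcript was not tested.

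**Figure D3:**
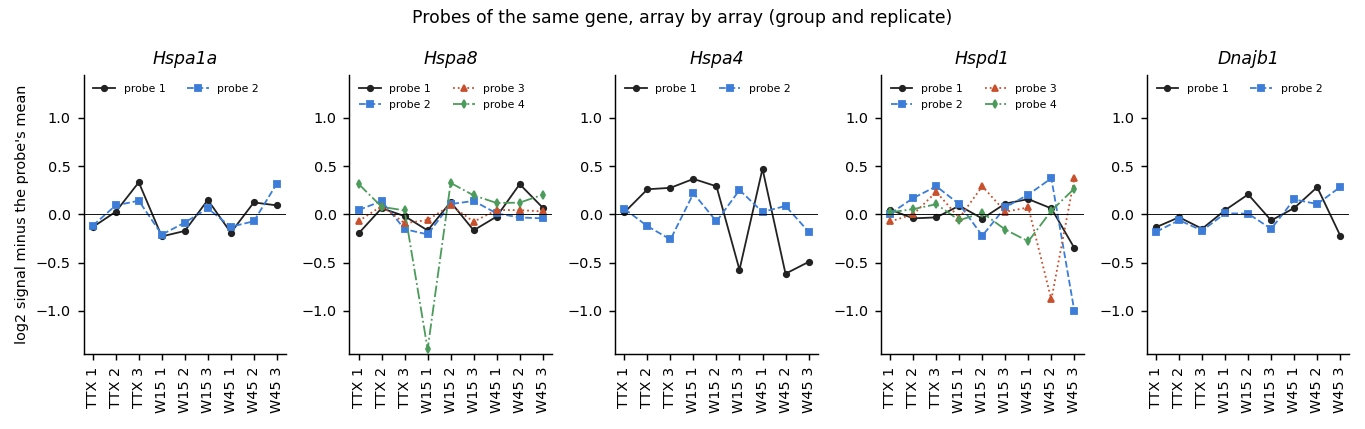
Log2 signal of each probe minus its mean over the 9 arrays, for the 5 genes read by several probes; the arrays stand along the horizontal axis by group and replicate, and the lines join the points of a probe only to guide the eye. The probes of Hspa1a run together (r = 0.72), and the points of Hspa8 probe 4, Hspa4 probe 1 and Hspd1 probes 2 and 3 that lie more than 0.6 under the TTX mean have no other probe of the gene as low on that array, though Hspd1 probe 1 is also at its lowest on W45 replicate 3 and Hspa8 probe 2 on W15 replicate 1.

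The wider chaperone and stress network was described with 10 further lists, 89 genes in all, of which 78 were measured through their brightest probe. None of the 78 was called in any of the 3 comparisons by limma, beside 0.0198%, 0.198% and 0.129% of all probes tested. By an unadjusted limma p under 0.05 there were 1 higher and 1 lower at 15 min, 1 and 1 at 45 min, and 2 and 3 between the times. Over all probes tested the shares were 3.36%, 6.37% and 6.61%. Arrays lay apart between the groups for 9, 8 and 4 of the 78, beside 13.9%, 11.6% and 8.07% of all probes, so such separation does not single out a gene. The median fold change over the 78 was 0.025 at 15 min, 0.057 at 45 min and 0.033 between them, beside 0.043, 0.044 and 0.0061 for all probes.

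Among the other HSP70 and HSP110 genes, 0 of 10 measured were called, with a median at 45 min of -0.04 on the log2 scale. The lowest were Hspa4l, an HSP110 relative, at -0.52 ± 0.27 and Hspa14, a ribosome-bound HSP70, at -0.41 ± 0.21 (limma adjusted p = 0.798 and 0.794). Of the 4 HSP90 genes none was called and the median was -0.02. Hsp90ab1, the constitutive cytosolic HSP90, was at 0.34 ± 0.12 with all W45 arrays above all TTX arrays (adjusted p = 0.692), and Trap1, the mitochondrial HSP90, at -0.31 ± 0.22.

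Of 13 J-domain genes measured none was called, with a median of 0.06 at 45 min. Dnajb9, an endoplasmic reticulum cochaperone, was at -0.39 ± 0.23 with all W45 arrays under all TTX arrays, and Dnaja1 at -0.32 ± 0.22. These were the largest sizes of the list. The 6 other small heat shock genes measured had the median 0.19 at 45 min, and none was called. Hspb7 was at 0.34 ± 0.34 and Hspb3 at 0.25 ± 0.23 (limma adjusted p = 0.915 and 0.911). Both probes were dim, with mean levels of -7.36 and -6.30 in TTX. The 9 chaperonin genes, which encode the cytosolic folding ring and Hspe1, the cap of Hspd1, had the median 0.05. Cct4, a subunit of that ring, was at -0.53 ± 0.24 (adjusted p = 0.778), and Cct3 at 0.07 ± 0.13.

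Cct4 read 3.50, 3.58 and 3.53 in TTX, 3.38, 3.31 and 3.46 at W15 and 3.65, 2.67 and 2.71 at W45. As for Hspa4 probe 1, W45 replicates 2 and 3 were low and W45 replicate 1 was not. Without W45 replicate 1, Cct4 was the 1 gene of the 78 called at 45 min against TTX (limma adjusted p = 0.0276), a gene singled out after its values were seen. Over all probes 0.67% were called in that setting, beside 0.198% with all arrays.

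The 12 cochaperone genes measured had a median of 0.11 at 45 min with 11 positive values, none called. Over all the wider lists 52 of 78 genes were positive at that time. The largest cochaperone values were Fkbp4, an HSP90 partner, at 0.28 ± 0.18 and Serpinh1, the collagen chaperone HSP47, at 0.27 ± 0.15 with arrays apart from TTX (limma adjusted p = 0.837 and 0.816). Of the 3 other heat shock factors and regulators measured, Hsf4 was at 0.40 ± 0.29 and Hsbp1, which binds Hsf1, at 0.09 ± 0.13. The Hsf4 probe was dim, with a mean level of -6.94 in TTX. The 17 genes of the NRF2 and heme pathway had a median of -0.014. Fth1, the ferritin heavy chain that stores iron, was at -0.51 ± 0.17 with all W45 arrays under all TTX arrays (adjusted p = 0.646). Gclc, which makes the glutathione precursor, was at -0.31 ± 0.20, also with all W45 arrays under all TTX arrays.

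The 2 metallothionein genes measured, which bind zinc and copper, had the median 0.22, with Mt3 at 0.24 ± 0.13 and Mt1 at 0.20 ± 0.29. Neither was called (limma adjusted p = 0.815 and 0.945).

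**Figure D4:**
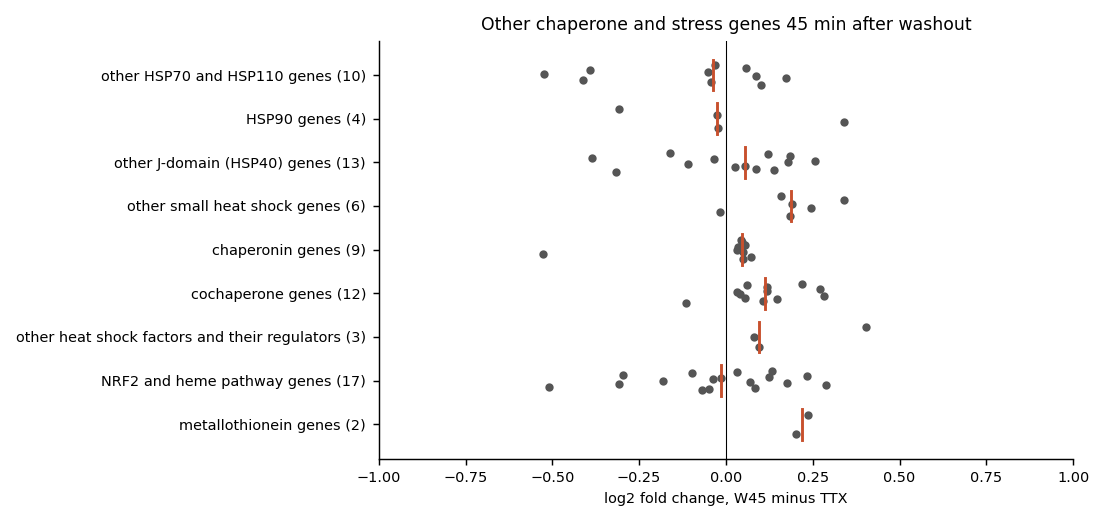
Log2 fold change of each gene of 9 wider lists at 45 min against TTX (grey points, brightest probe per gene, number of genes in brackets), with the list's median as an orange bar. Values run from -0.53 for Cct4 to 0.40 for Hsf4, whose probe was dim, and 0 of the genes shown was called.

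Genes with Hsf1 elements in their promoter windows were set beside the rest as a description. Of 10015 genes with a window and a tested probe, 53 held a triple of units. None of the 53 was called at either time or between them, beside 5, 34 and 25 called among the 10015 (0.05%, 0.34% and 0.25%). With shares that small, a count of 0 among 53 says little. Their median fold change was 0.05 at 15 min and 0.04 at 45 min, beside 0.04 and 0.04 for all of them. Of the 1221 genes with a pair, 4 were called at 45 min against TTX, and these were Bdnf, Ccn1, Nr4a2 and Ptgs2. That is 0.328%, near the 0.34% of all 10015 genes, so the pair did not mark the called genes.

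The genes whose levels ran most like those of a heat shock gene over the 9 arrays were, for Hspa1a probe 1, Tpgs2, Prkcd and Aamdc (r = 0.956, 0.951 and 0.941). For Dnajb1 probe 1 they were Sgsm2, Ddx23 and Actr8 (0.977, 0.964 and 0.963), and for Hmox1 Tlcd3b, Prr5 and Tp53i11 (0.968, 0.957 and 0.955). They are the highest among the named genes of 28119 probes, over arrays that share their slides, and are given as a description.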

How the data were processed

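Per the file headers, the authors' scanner files hold Cy3 spot intensity, from Feature Extraction 9.5.3.1 (the submitters' processing notes give 9.5) under protocol GE1-v5_95_Feb07 from array design 014879, and the processed intensity is background-subtracted and detrended within each array, with no scaling between arrays. Per the labels, cRNA was made from 500 ng of RNA. The deposited values of the series matrix equal the processed intensity (largest difference 0) and served as the unscaled alternative. Of the spots, controls (1639 of 45018) were left out and outlier spots set to missing (49 to 111 per array). Spots of a probe were averaged as log2 signal minus the array's 75th percentile. Probes well above background on all 3 arrays of a group, with at most 1 missing array, were kept. They were fitted with limma 3.58.1 (R 4.3.3, data.table, version 1.17.8) on all 9 arrays with group means only, two-sided, at an adjusted p of 0.05, after a check on simulated data. The number of arrays limits the precision. Symbols were matched to RefSeq names (GRCr8) by accession, then by symbol, then by an unambiguous synonym, and other names were kept as in the array files. Tables and plots used Python 3.11.15, pandas 2.3.3 and matplotlib 3.10.9.

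The members, lists and rules were chosen with earlier results of these data known. By the naming rule the text gives every member probe, genes of the wider lists called in any comparison, up to 2 per list with the largest change at 45 min, 5 activity genes, and the 3 closest patterns of 3 members. Deviations of same-numbered arrays from their group means correlated at 0.38, 0.42 and 0.25 between W15 and TTX and at 0.24, 0.40 and 0.11 between W45 and TTX, so the numbers were taken to pair the samples there. The fit reported has no replicate block, and the blocked fit was run as an alternative. Between W45 and W15 the correlations of same-numbered arrays were 0.07, 0.17 and 0.17, and the first falls short of 0.1. One of the wider lists is counted in the totals and is not reported here on its own. Alternatives covered background correction, scaling, filters, one probe per gene, slide, pairing, variance model and each array left out. Slide 3 alone, and leaving out W45 replicates 2 and 3 together, were chosen after seeing the data.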

Additional observations from a re-analysis of the deposited data

How the results depend on the processing

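None of the 17 tested heat shock and stress probes was called under any of the 23 tested settings. Of 1095 fold changes 0 passed, and the smallest limma adjusted p was 0.30. The sign differed from the reported value for 100 of them, all uncalled. The dim Hspa1b probe is not in these counts, not even for the setting without a filter on dim probes. The replicate block changed no call. It left the medians at 0.012, 0.00035 and -0.020, as it had to, because each group holds each replicate number once and only the errors could change. The median fold change of the probes moved by more than its spread between arrays (0.095) in 5 cases. With arrays left unscaled it came to -0.19 for 15 min and -0.26 for 45 min, both against TTX, and all probes together had medians of -0.16 and -0.22. It was 0.11 at 45 min against 15 min with normexp, where the median of all probes was -0.19 (0.20 and 0.12 against TTX). With 1 brightest probe per gene it was 0.11 at 15 min, and on slide 1 alone 0.12 at 45 min against TTX. The cause was not tested. Leaving out 1 array at a time gave 0 to 1 wider-list genes called at 45 min against TTX. On slide 3 alone the median between 45 and 15 min was 0.014, and without W45 replicates 2 and 3 it was 0.028 against TTX and -0.003 against W15. Counts over all probes depended on the setting: with slide as a fixed block 0 were higher at 15 min and 21 higher and 4 lower at 45 min, beside 6, 53 and 7. Slide and group are partly confounded, because no other group shared the slide of TTX replicates 2 and 3.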
